A study of Mus musculus with 6 samples.

Results

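The 42 genes described here encode the enzymes and carriers that bring fatty acids into mitochondria and peroxisomes and oxidise them there, with a few thioesterases and the enzymes that handle branched-chain and propionyl units. They were taken by gene symbol from a table of 13940 symbols, and all 42 had a row: 26 are mitochondrial, 9 are peroxisomal and 7 act in both compartments or elsewhere. No member was among the rows set aside before testing, no filter on low values was applied to the 13042 genes tested, and every member averaged 1 FPKM or more over the 6 libraries. FPKM are fragment counts scaled to transcript length and to the size of the library.

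RNA was collected by ribosome immunoprecipitation at the site of a contusive injury at T8 of the mouse spinal cord, in 3 libraries 7 days and 3 libraries 3 days after the injury. All 6 libraries came from animals labelled LysMCre:Rplfl/fl > CD45.1 chimera, so both times share this genotype, the CD45.1 strain and the injury. LysM-Cre is active in macrophages, monocytes, neutrophils and other myeloid cells, and in the RiboTag method it switches on an epitope tag on a ribosomal protein, so that tagged ribosomes and their RNA can be precipitated. In such a chimera, donor cells carry the tag and the cells the CD45.1 host still has do not; how the chimeras were made is not given in the sources used here. Age, and whether separate animals gave the libraries, are not given in the sources used here, so p-values cover the spread between libraries only, which may be technical. No uninjured cord was analysed, and every change is 7 days relative to 3 days.

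Fatty acids are first joined to coenzyme A by acyl-CoA synthetases. Long chains then enter mitochondria through the carnitine shuttle. Chains in mitochondria are shortened by a spiral of dehydrogenation, hydration, a second dehydrogenation and thiolysis, with electrons passed on through the electron transfer flavoprotein. Peroxisomes take in very long and branched chains through ABC transporters, shorten them with oxidases that give hydrogen peroxide, and pass the products on as carnitine esters. In macrophages this pathway is known as a route for burning lipid taken up from dying cells and lipoproteins.

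Macrophage genes were abundant in all libraries, and markers of other cells were present too. The receptor gene Csf1r measured 191, 212 and 191 FPKM at 7 days and 149, 138 and 144 FPKM at 3 days. Of 6 macrophage markers tested, 3 were higher at 7 days and 2 lower (median log2 change 0.29), and their summed level lay between 1940 and 2170 FPKM at 7 days and between 1490 and 1860 FPKM at 3 days. All 7 neuron markers, 6 of 6 oligodendrocyte, 5 of 6 astrocyte and 5 of 5 endothelial markers were lower at 7 days. The neuron markers summed to between 41.8 and 54.9 FPKM at 7 days and between 138 and 321 FPKM at 3 days, and 3-day replicate 2 held the highest sum of all 4 of these lists. The 4 microglia markers tested gave 3 calls higher (median log2 change 0.80) and summed to between 2060 and 2280 FPKM at 7 days, against 664 to 843 FPKM at 3 days. Of 6 neutrophil markers, 1 was higher and 1 lower, and their sum lay between 31.2 and 49.0 FPKM at 7 days and between 48.3 and 53.2 FPKM at 3 days. S100a8 was the one called higher, with 22.4 to 34.0 FPKM at 7 days and 13.9 to 20.6 FPKM at 3 days (limma adjusted p = 0.0459). S100a9 was the one called lower, with 4.23 to 9.51 FPKM at 7 days and 17.9 to 24.6 FPKM at 3 days (limma adjusted p = 0.00996). Mpo was listed at 0 in all 3 libraries at 7 days and at 0, 0.678 and 3.92 FPKM at 3 days. It was not called (limma adjusted p = 0.155). Inflammatory monocyte markers fell in 3 of 5 cases and erythroid markers in 4 of 4. In such bulk precipitates, fewer cells of a type and less RNA per cell cannot be told apart, and the part of these shifts in the results below was not tested. The number of reads behind each value is unknown, because the deposited unit is FPKM.

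Most of the 42 members were higher at 7 days. Of the 42, 28 rose, 1 fell and 13 did not pass the test (limma on log2(FPKM + 1), two-sided, Benjamini-Hochberg adjusted p of 0.05 or less over all 13042 genes). By the same rule 18.8% of the whole table was higher and 20.3% lower; among genes averaging 1 FPKM or more, 21.9% were higher and 19.7% were lower. The members' median log2 change was 0.51, beside -0.04 for all genes tested and 0.06 for genes averaging 1 FPKM or more. In 31 members all 3 libraries at 7 days lay above all 3 at 3 days, which held for 26.8% of all genes tested; the reverse held for 2 members, beside 28.6% of all genes. By the q-value of the authors' deposited table, at 0.05 or less, 25 members were higher and 2 lower, beside 17.8% and 20.7% of all genes, and 24 of the 25 were also called here. The changes were moderate, and 7 members were 2-fold or more higher in mean FPKM. Without 7-day replicate 2 the count of members that rose was 18, and over the other 5 libraries left out in turn it was 22 or 23. Of the 28 members that rose, 18 kept their call under all 14 alternative fits.

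**Figure D1:**
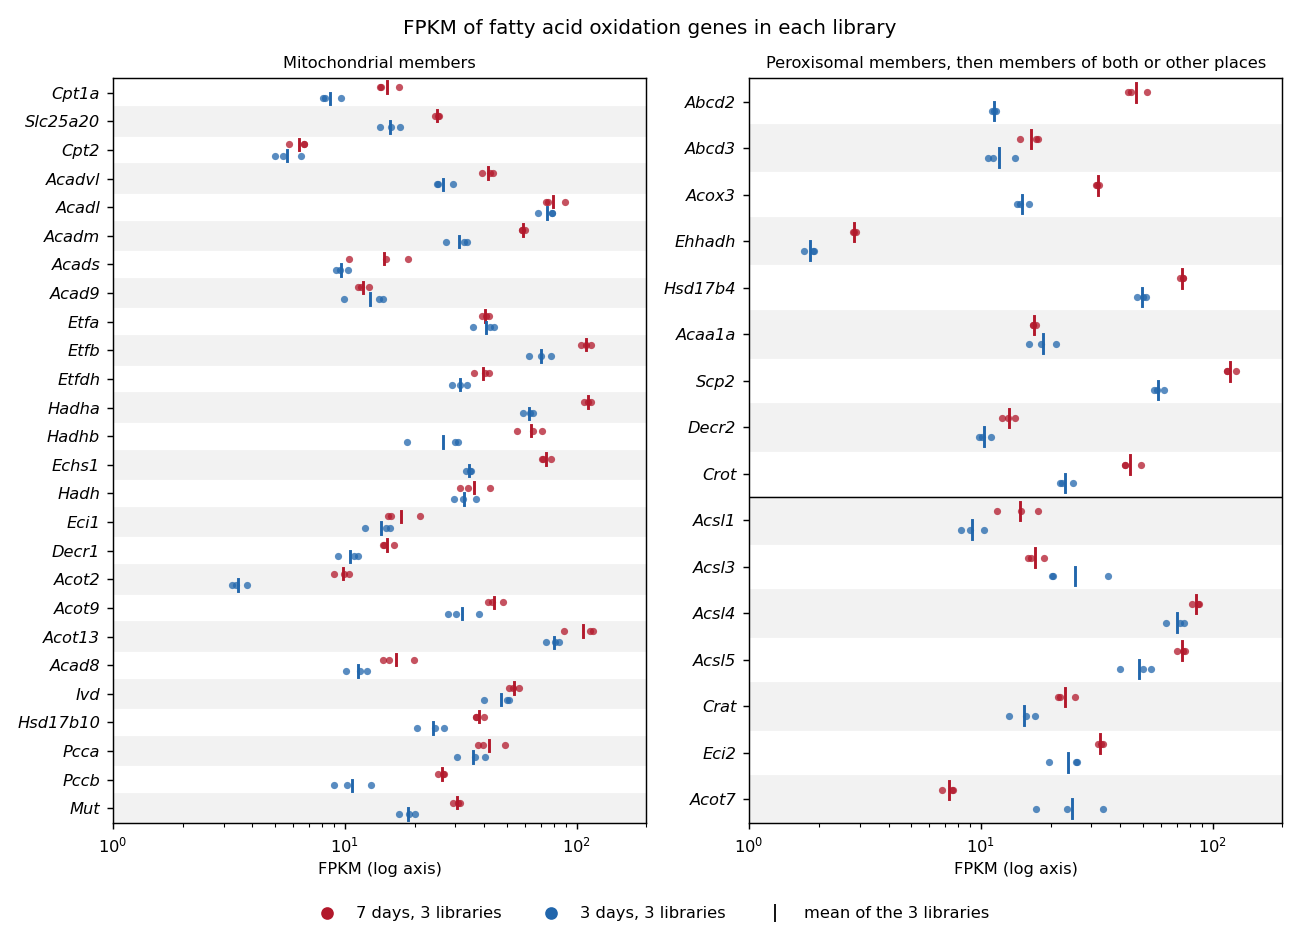
FPKM of each of the 42 members in every library on a log axis, with 7-day libraries (red) above 3-day libraries (blue) in each row and bars at the means of 3 libraries. The red points lie wholly to the right of the blue ones in 31 rows and wholly to the left in Acsl3 and Acot7.

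Most members of both compartments rose. Of the 26 mitochondrial members, 17 rose and 0 fell, with a median log2 change of 0.51; the 9 not called had an adjusted p of 0.068 or more, and 1 alternative fit called 1 of them, Acads. Of the 9 peroxisomal members, 7 rose and 0 fell, with a median log2 change of 0.57; Decr2 and Acaa1a were not called, and Decr2 passed in 2 alternative fits. The summed FPKM of the mitochondrial members was 1128, 1158 and 1096 at 7 days and 743, 765 and 804 at 3 days. That of the peroxisomal members was 360.3, 358 and 375 FPKM at 7 days and 195, 194 and 211 FPKM at 3 days. Both sums were thus higher in every 7-day library than in any 3-day library. The group split by compartment gave no p, since members are not replicates.

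The rows do not all describe whole genes, and this touches the peroxisomal set most. The locus that the authors' table gives covered under 80% of the GENCODE M21 gene (mm10) in 10 members, and all 10 rose: Cpt1a, Hadhb and Pccb among the mitochondrial, Abcd2, Abcd3, Acox3, Scp2 and Crot among the peroxisomal, and Eci2 and Acsl1. Of the 32 members with a wider locus, 18 rose and 1 fell (median log2 change 0.45). In these, the mitochondrial count was 14 of 23 (median 0.49) and the peroxisomal count was 2 of 4 (median 0.38). Among all genes averaging 1 FPKM or more, rows with such a short locus were called higher in 19.3% and rows with a wider one in 23.0%. The part of the short loci in these changes was not tested. In 11 members the locus also overlaps another coding gene, among them Acadvl (Dvl2), Etfdh (Ppid), Hsd17b10 (Ribc1), Mut (Cenpq), Scp2 (Podn) and Acsl5 (Zdhhc6), so their reads may include those of that gene.

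**Figure D2:**
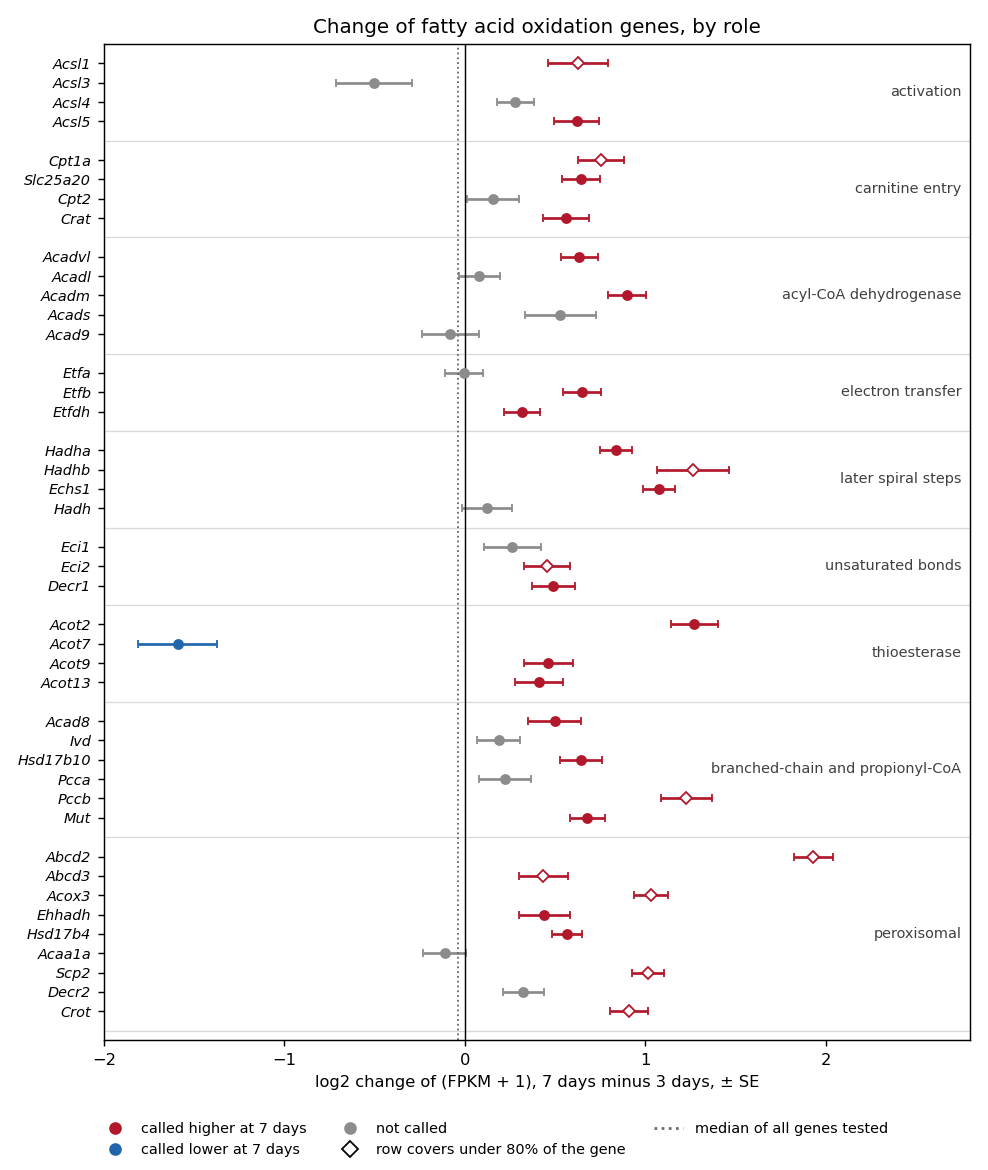
Fitted log2 change of FPKM + 1, 7 days minus 3 days, with SE, for the 42 members grouped by role. Red points were called higher, the blue one (Acot7) lower and grey ones were not called; open diamonds mark the 10 rows that cover under 80% of the gene, all of which are red, and the dotted line is the median of all genes tested (-0.04).

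Acyl-CoA synthetases, which activate fatty acids, gave 2 calls of 4, both higher. Acsl5, found on mitochondria and the endoplasmic reticulum, measured 76.3, 74.7 and 70.5 FPKM at 7 days and 50.1, 39.9 and 54.3 FPKM at 3 days. The times did not overlap, and Acsl5 rose 1.53-fold in mean FPKM, with a fitted log2 change of FPKM + 1 of 0.62 ± 0.13 (SE; limma adjusted p = 0.00891); folds and log2 changes are given in this way throughout. Acsl1, the main synthetase of fat and muscle, measured 11.8, 14.9 and 17.7 FPKM at 7 days and 9.01, 8.20 and 10.3 FPKM at 3 days. It rose by log2 0.62 ± 0.17 (limma adjusted p = 0.0227), and lost the call without 7-day replicate 2 or 3 or 3-day replicate 1 or 2 (adjusted p from 0.0528 to 0.0730). Acsl4, which prefers arachidonate and other polyunsaturated chains, had the highest FPKM of the 4, with 81.4 to 87.4 FPKM at 7 days and 62.7 to 75.1 FPKM at 3 days, and missed the test (limma adjusted p = 0.0612). Acsl3, the synthetase of nascent lipid droplets, measured 18.7, 16.5 and 16.0 FPKM at 7 days and 20.3, 35.5 and 20.5 FPKM at 3 days. Its highest value was in 3-day replicate 2, the library with the highest sum of neuron markers, and it was not called (log2 -0.50 ± 0.21; limma adjusted p = 0.0974); in the authors' deposited table it has a q-value of 0.0140.

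In the carnitine shuttle, 3 of 4 genes rose. Cpt1a, the gate of the shuttle on the outer membrane, measured 14.2, 17.1 and 14.3 FPKM at 7 days and 8.05, 8.21 and 9.63 FPKM at 3 days. It rose 1.77-fold (log2 0.75 ± 0.13; limma adjusted p = 0.00445), and its row covers 9.35% of the gene's span. Slc25a20, the carnitine-acylcarnitine carrier of the inner membrane, measured 25.5, 24.6 and 25.2 FPKM at 7 days and 14.1, 15.8 and 17.3 FPKM at 3 days (log2 0.65 ± 0.11; limma adjusted p = 0.00385). Both genes had every 7-day library above every 3-day library. Cpt2, which frees the acyl-CoA again on the matrix side, was low and overlapped between the times, at 6.66, 6.70 and 5.74 FPKM at 7 days and 4.98, 6.50 and 5.39 FPKM at 3 days (log2 0.16 ± 0.15; limma adjusted p = 0.407). Crat, which moves short acyl groups on and off carnitine, measured 22.0, 25.4 and 21.5 FPKM at 7 days and 13.2, 15.6 and 17.1 FPKM at 3 days. It rose 1.5-fold (log2 0.56 ± 0.13; limma adjusted p = 0.0131) and lost the call without 7-day replicate 2 (adjusted p = 0.0519).

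The acyl-CoA dehydrogenases, which make the first double bond and differ in the chain length they take, gave 2 calls of 5, both higher. Acadm, for medium chains, measured 59.9, 58.3 and 58.3 FPKM at 7 days and 32.7, 27.3 and 33.7 FPKM at 3 days (1.88-fold; log2 0.90 ± 0.10; limma adjusted p = 0.00115). Acadvl, bound to the inner membrane and specific for very long chains, measured 42.4, 38.9 and 43.5 FPKM at 7 days and 25.2, 25.1 and 29.3 FPKM at 3 days (1.57-fold; log2 0.63 ± 0.10; limma adjusted p = 0.00375). In both genes all 7-day libraries lay above all 3-day libraries. Acadl, for long chains, had the highest level of the family and overlapped, with 88.7, 73.4 and 75.4 FPKM at 7 days and 78.3, 67.9 and 78.0 FPKM at 3 days (log2 0.08 ± 0.11; limma adjusted p = 0.583). Acads, for short chains, ran from 10.5 to 18.8 FPKM at 7 days and from 9.2 to 10.3 FPKM at 3 days, and missed the test (limma adjusted p = 0.068), which it passed without 7-day replicate 1. Acad9, known also as an assembly factor of respiratory complex I, ran from 11.4 to 12.7 FPKM at 7 days and from 9.94 to 14.7 FPKM at 3 days, and overlapped (limma adjusted p = 0.698).

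Electrons from these dehydrogenases pass through the electron transfer flavoprotein, and 1 of its 2 subunits passed the test. Etfb, the beta subunit, measured 110.1, 115 and 104 FPKM at 7 days and 62.2, 70.5 and 77.3 FPKM at 3 days (log2 0.65 ± 0.11; limma adjusted p = 0.00404). Etfa, the alpha subunit, measured 41.7, 40.5 and 39.1 FPKM at 7 days and 42.4, 35.7 and 44.1 FPKM at 3 days (log2 -0.01 ± 0.11; limma adjusted p = 0.971). The ratio of Etfb to Etfa was therefore 2.64 to 2.85 at 7 days and 1.47 to 1.98 at 3 days. This pair was singled out after its values were seen, and its ratio was not tested. Etfdh, the oxidoreductase that hands the electrons to ubiquinone, measured 40.1, 41.8 and 36.1 FPKM at 7 days and 31.3, 29.1 and 33.8 FPKM at 3 days. It was called higher (log2 0.32 ± 0.10; limma adjusted p = 0.0436) but lost the call without any single library (adjusted p from 0.0515 to 0.137), with quantile normalization (0.353), with median centring (0.0572), without the trend in the prior variance (0.0767) and with the replicate block (0.0711).

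The steps that finish each turn of the spiral held 2 of the mitochondrial members that were over 2-fold higher, Echs1 and Hadhb. Echs1, the short-chain enoyl-CoA hydratase, measured 71.2, 77.7 and 71.5 FPKM at 7 days and 34.6, 33.3 and 35.1 FPKM at 3 days. It rose 2.14-fold (log2 1.07 ± 0.09; limma adjusted p = 3.68e-04; mm10 chromosome 7, 140105719 to 140137246, a locus that also spans Paox). Hadha, the alpha subunit of the trifunctional protein, which hydrates and dehydrogenates long chains, measured 116, 108 and 112 FPKM at 7 days and 58.8, 62.8 and 64.8 FPKM at 3 days (log2 0.84 ± 0.09; limma adjusted p = 8.18e-04). Its partner Hadhb, the thiolase subunit, measured 55.1, 64.8 and 71.1 FPKM at 7 days and 18.6, 30.0 and 30.7 FPKM at 3 days (2.41-fold; log2 1.26 ± 0.20; limma adjusted p = 0.0034; chromosome 5, 30155265 to 30175845). All 3 genes had separate times, and the lowest Hadhb value was that of 3-day replicate 1. Hadh, the dehydrogenase for medium and short chains, overlapped between the times, at 31.4 to 42.4 FPKM at 7 days and 29.5 to 36.6 FPKM at 3 days (log2 0.12 ± 0.14; limma adjusted p = 0.498).

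Hadha and Hadhb lie head to head, with RefSeq starts 273 bases apart at 30154980 (Hadha, minus strand) and 30155253 (Hadhb, plus strand) on chromosome 5 of GRCm38.p6. The 250 bases before the Hadhb start, which lie between both starts, are printed first because both subunits rose, followed by the 250 bases before the RefSeq starts of 3 other members that rose and hold the hexamer AGGTCA. Each is written 5′ to 3′ on the gene's strand in lower case, with AGGTCA, or TGACCT where it lies on the other strand, in capitals; this hexamer is the core bound by PPAR, RXR and ERR nuclear receptors.
Hadhb, chr5:30155003-30155252, plus strand: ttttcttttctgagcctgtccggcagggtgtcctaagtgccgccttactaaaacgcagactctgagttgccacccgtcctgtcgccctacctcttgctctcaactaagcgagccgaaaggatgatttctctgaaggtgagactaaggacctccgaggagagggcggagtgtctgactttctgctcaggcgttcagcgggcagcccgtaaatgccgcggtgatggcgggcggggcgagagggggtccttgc
Acadvl, chr11:70015429-70015678, minus strand: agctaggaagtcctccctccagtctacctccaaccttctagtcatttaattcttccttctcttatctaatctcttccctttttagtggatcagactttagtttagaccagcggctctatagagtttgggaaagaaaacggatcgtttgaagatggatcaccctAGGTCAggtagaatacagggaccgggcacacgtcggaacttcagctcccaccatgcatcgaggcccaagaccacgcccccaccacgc
Echs1, chr7:140116422-140116671, minus strand: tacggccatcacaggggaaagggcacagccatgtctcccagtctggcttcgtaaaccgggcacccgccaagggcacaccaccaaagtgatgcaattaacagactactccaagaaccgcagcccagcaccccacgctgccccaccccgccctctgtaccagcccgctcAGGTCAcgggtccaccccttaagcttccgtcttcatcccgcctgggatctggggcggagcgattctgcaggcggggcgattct
Scp2, chr4:108118548-108118797, minus strand: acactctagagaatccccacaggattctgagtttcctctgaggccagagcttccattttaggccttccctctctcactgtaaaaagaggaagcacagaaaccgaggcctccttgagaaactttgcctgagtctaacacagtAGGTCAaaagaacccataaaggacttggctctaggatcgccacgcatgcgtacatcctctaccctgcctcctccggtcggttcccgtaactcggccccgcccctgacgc

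The hexamer begins 87 bases before the start in Acadvl, 83 in Echs1 and 109 in Scp2, and is not in the printed Hadhb stretch. Of the 42 members, 35 had a RefSeq promoter window (250 bases before to 50 after a start), and 6 of these, or 17.1%, held AGGTCA on either strand: Acadm, Acadvl, Cpt1a, Echs1, Pcca and Scp2. Among all 27025 genes with a window the share was 18.1%, so the members' share was close to the background. A direct repeat of AGGTCA with 1 base between the copies and the extended site TNAAGGTCA, both of which contain AGGTCA, were in 0 of the 35 members and in 0.0481% and 1.43% of all genes. The NRF1 motif, GCGCA and GCGC with 1 base between them, was in Abcd3, Etfb, Etfdh and Pccb, which is 11.4% of members beside 5.19% of all genes. The ETS motif CCGGAAG was in Cpt2, Crot and Slc25a20, which is 8.57% of members beside 9.93% of all genes. A match is a description of the letters in the window and not a measured site.

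Of the 4 auxiliary enzymes for unsaturated chains, Decr1 and Eci2 rose, and Eci1 and the peroxisomal Decr2, described further on, were not called. Decr1, the mitochondrial dienoyl-CoA reductase, measured 14.8, 16.2 and 14.6 FPKM at 7 days and 9.34, 10.9 and 11.4 FPKM at 3 days. It rose 1.44-fold (log2 0.49 ± 0.12; limma adjusted p = 0.0157) and lost the call without 7-day replicate 2 (adjusted p = 0.0608). Eci2, an enoyl-CoA isomerase of both organelles, measured 33.7, 32.8 and 31.9 FPKM at 7 days and 19.7, 26.1 and 25.7 FPKM at 3 days. It rose by log2 0.46 ± 0.13 (limma adjusted p = 0.0255) and lost the call without any one 7-day library (adjusted p from 0.0644 to 0.0788) and with quantile normalization (0.115). The mitochondrial isomerase Eci1 overlapped between the times, with 15.3, 15.9 and 21.1 FPKM at 7 days and 15.0, 15.7 and 12.2 FPKM at 3 days (limma adjusted p = 0.217), and is the only member left out of the authors' filtered table.

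Thioesterases, which split acyl-CoA back into fatty acid and coenzyme A, held the one member that fell. Acot7, a cytosolic thioesterase known to be abundant in brain, measured 7.51, 6.81 and 7.56 FPKM at 7 days and 17.3, 33.7 and 23.6 FPKM at 3 days. It fell to 0.294 of its 3-day mean (log2 -1.59 ± 0.22; limma adjusted p = 0.0021; chromosome 4, 152178191 to 152271881), and its highest value was in 3-day replicate 2. The neuron markers ran in the same direction, with a median log2 change of -1.86, and their sum was likewise highest in 3-day replicate 2; their part in the change of Acot7 was not tested. Acot2, a mitochondrial thioesterase for long chains, measured 9.01, 9.93 and 10.4 FPKM at 7 days and 3.38, 3.77 and 3.26 FPKM at 3 days (2.82-fold; log2 1.27 ± 0.13; limma adjusted p = 7.57e-04; chromosome 12, 83987575 to 83993873). It has near-identical relatives, among them the cytosolic Acot1, so its reads may be split or shared. Acot1 itself measured 14.7, 13.7 and 12.6 FPKM at 7 days and 4.19, 6.57 and 4.83 FPKM at 3 days, and rose as well (log2 1.26 ± 0.17; limma adjusted p = 0.00175).

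The other mitochondrial thioesterases also rose. Acot9 measured 41.3, 43.0 and 48.2 FPKM at 7 days and 27.9, 30.1 and 38.0 FPKM at 3 days (log2 0.46 ± 0.13; limma adjusted p = 0.0300). The call of Acot9 was lost with quantile normalization (0.18) and when a library other than 3-day replicate 3 was left out (adjusted p from 0.0573 to 0.10). Acot13 measured 117, 114 and 88.5 FPKM at 7 days and 81.0, 84.2 and 73.5 FPKM at 3 days (log2 0.41 ± 0.13; limma adjusted p = 0.0422). That of Acot13 was lost with quantile normalization (0.292), without the trend in the prior variance (0.0666) and when a library other than 7-day replicate 3 was left out (adjusted p from 0.0651 to 0.132).

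Enzymes that take up the products of branched-chain and odd-chain breakdown rose at several steps. Pccb, the beta subunit of propionyl-CoA carboxylase, measured 26.8, 25.3 and 26.4 FPKM at 7 days and 8.96, 13.0 and 10.2 FPKM at 3 days. It rose 2.44-fold (log2 1.23 ± 0.14; limma adjusted p = 0.00108; chromosome 9, 100982043 to 100994639, a locus with 23.8% of the gene's span). Pcca, the alpha subunit, overlapped between the times, at 39.5, 49.0 and 37.5 FPKM at 7 days and 36.6, 40.2 and 30.5 FPKM at 3 days (limma adjusted p = 0.241). The ratio of Pccb to Pcca was 0.517 to 0.706 at 7 days and 0.245 to 0.335 at 3 days, a pair that was also singled out after its values were seen and was not tested. For the trifunctional protein, the ratio of Hadhb to Hadha overlapped, at 0.476 to 0.636 at 7 days and 0.317 to 0.477 at 3 days. Mut, the methylmalonyl-CoA mutase that makes succinyl-CoA from the carboxylase's product, measured 30.7, 31.4 and 29.3 FPKM at 7 days and 17.1, 20.1 and 18.9 FPKM at 3 days (1.63-fold; log2 0.68 ± 0.10; limma adjusted p = 0.00258).

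In the breakdown of isoleucine and branched fatty acids, Hsd17b10 measured 37.0, 39.7 and 36.8 FPKM at 7 days and 20.6, 26.7 and 24.6 FPKM at 3 days (log2 0.64 ± 0.12; limma adjusted p = 0.00545). Acad8, the isobutyryl-CoA dehydrogenase of valine breakdown, measured 15.4, 19.8 and 14.6 FPKM at 7 days and 12.4, 11.6 and 10.1 FPKM at 3 days (log2 0.50 ± 0.15; limma adjusted p = 0.0319). Its call was lost without 7-day replicate 1 or 2 or 3-day replicate 2 or 3 (adjusted p from 0.0636 to 0.0969). Ivd, the isovaleryl-CoA dehydrogenase of leucine breakdown, ran from 50.8 to 56.5 FPKM at 7 days and from 39.8 to 51.3 FPKM at 3 days and was not called (limma adjusted p = 0.240).

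Among peroxisomal genes, the import step showed the largest change of the 42. Abcd2, an ABC transporter for very long and polyunsaturated acyl-CoA, measured 52.3, 44.3 and 43.0 FPKM at 7 days and 11.2, 11.7 and 11.4 FPKM at 3 days. It rose 4.07-fold (log2 1.93 ± 0.11; limma adjusted p = 9.33e-05; chromosome 15, 91178120 to 91189301), in a row that covers 24.3% of the gene. Its relative Abcd3, which carries branched and dicarboxylic acyl-CoA, measured 14.7, 17.2 and 17.6 FPKM at 7 days and 11.3, 14.0 and 10.7 FPKM at 3 days. Abcd3 was called higher (log2 0.43 ± 0.14; limma adjusted p = 0.0391) but lost the call with quantile normalization (0.0572), without the trend in the prior variance (0.0512) and when a library other than 3-day replicate 2 was left out (adjusted p from 0.0507 to 0.119).

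In the peroxisomal spiral, the oxidase, both multifunctional enzymes and the thiolase Scp2 rose, and the thiolase Acaa1a was not called. Acox3, the pristanoyl-CoA oxidase, which takes branched chains, measured 31.5, 31.8 and 32.4 FPKM at 7 days and 14.7, 14.4 and 16.2 FPKM at 3 days (2.11-fold; log2 1.03 ± 0.09; limma adjusted p = 5.49e-04; chromosome 5, 35583046 to 35600480). Hsd17b4, the D-bifunctional protein, measured 72.7, 74.4 and 74.3 FPKM at 7 days and 50.2, 47.1 and 51.4 FPKM at 3 days (1.49-fold; log2 0.57 ± 0.08; limma adjusted p = 0.0027). In both genes the libraries of a time lay close together and the times did not overlap. Ehhadh, the L-bifunctional protein best known from liver, was the lowest member, with 2.84, 2.81 and 2.90 FPKM at 7 days and 1.89, 1.73 and 1.91 FPKM at 3 days (log2 0.44 ± 0.14; limma adjusted p = 0.0438). It lost the call without any single library (adjusted p from 0.0620 to 0.112), with genes averaging 1 FPKM or more (0.0507) and with the replicate block (0.0912). Acaa1a, a 3-ketoacyl-CoA thiolase with a near-identical relative, measured 16.8, 16.7 and 17.3 FPKM at 7 days and 18.2, 16.1 and 21.2 FPKM at 3 days (log2 -0.11 ± 0.12; limma adjusted p = 0.473), in a locus that also spans Myd88 and Slc22a14. Scp2, which encodes both a thiolase for branched chains and a sterol carrier protein, measured 115, 115 and 126 FPKM at 7 days and 55.8, 57.4 and 61.7 FPKM at 3 days (2.04-fold; log2 1.01 ± 0.09; limma adjusted p = 5.24e-04; chromosome 4, 108043678 to 108118558).

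Products leave the peroxisome as carnitine esters. Crot, the octanoyltransferase that makes them, measured 41.7, 42.0 and 48.9 FPKM at 7 days and 22.3, 21.9 and 24.9 FPKM at 3 days (1.92-fold; log2 0.91 ± 0.11; limma adjusted p = 0.00114), with no overlap. Decr2, the peroxisomal dienoyl-CoA reductase, measured 12.4, 14.1 and 13.1 FPKM at 7 days and 9.79, 10.1 and 11.1 FPKM at 3 days. Its times did not overlap either, but it missed the test (log2 0.32 ± 0.11; limma adjusted p = 0.0535), and passed it with genes averaging 1 FPKM or more and with the genes of the authors' filtered table.

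To set the compartments beside each other, the log2 ratio of FPKM + 1 of a mitochondrial to a peroxisomal enzyme was taken in each library. This was done for 7 pairs with a like kind of step. The enzymes of a pair can differ in substrate or direction. Acadvl takes very long chains and Acox3 branched ones, and Cpt2 frees acyl groups from carnitine where Crot makes carnitine esters. In 6 pairs the ratios at the 2 times did not overlap, and all 6 had the smallest p that an exact two-sided permutation test of 3 against 3 libraries can give, 0.1 (0.117 adjusted over the 7 pairs), so none could pass the threshold. In 2 of the 6 the ratio lay further toward the peroxisomal gene at 7 days. The ratio of Acadvl to Acox3 averaged 0.37 ± 0.08 at 7 days and 0.77 ± 0.04 at 3 days, and that of Cpt2 to Crot averaged -2.62 ± 0.24 at 7 days and -1.86 ± 0.22 at 3 days (SD of log2 ratios, n = 3 each). In the other 4 the ratio lay further toward the mitochondrial gene. The ratio of Hadhb to Acaa1a averaged 1.84 ± 0.17 at 7 days and 0.47 ± 0.42 at 3 days. Smaller differences were those of Hadha to Ehhadh (4.87 ± 0.05 at 7 days and 4.47 ± 0.09 at 3 days), Hadha to Hsd17b4 (0.59 ± 0.07 at 7 days and 0.32 ± 0.09 at 3 days) and Decr1 to Decr2 (0.19 ± 0.04 at 7 days and 0.03 ± 0.09 at 3 days). The size of the Hadha to Ehhadh difference depends on the added 1 FPKM, because Ehhadh is low. With 0.1 FPKM added instead, the log2 change of Ehhadh was 0.61 in place of 0.44. That of Hadha was 0.85 in place of 0.84. The ratio of Slc25a20 to Abcd3 overlapped, at 0.58 ± 0.15 at 7 days and 0.37 ± 0.25 at 3 days (exact permutation p = 0.3). The pairs thus ran in both directions, and Acox3, Crot, Hadhb and Abcd3 are among the rows with a short locus.

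**Figure D3:**
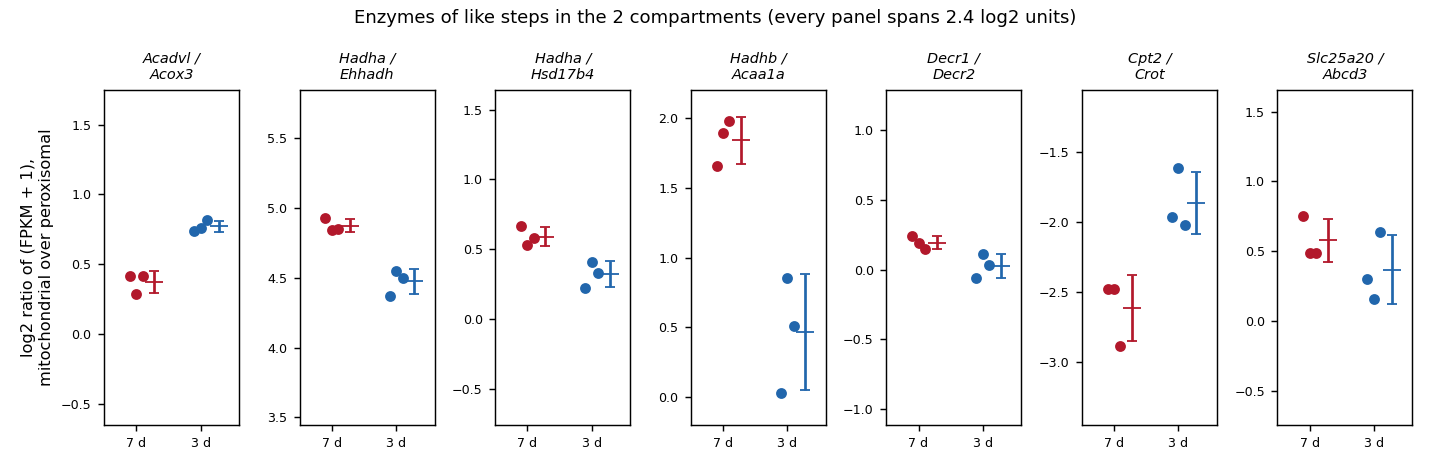
Log2 ratio of FPKM + 1 of a mitochondrial over a peroxisomal enzyme for a like kind of step. Points are 7-day (red, left) and 3-day (blue, right) libraries, with mean and SD. The 7-day points lie below the 3-day points for Acadvl/Acox3 and Cpt2/Crot, above them in 4 pairs, and overlap for Slc25a20/Abcd3.

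Beyond the 42, other genes of fatty acid oxidation went both ways. Of 44 further genes tested, 15 were higher and 6 lower (median log2 change 0.27). These are 34.1% and 13.6%, beside 18.8% and 20.3% of all genes tested. Ech1, a dienoyl-CoA isomerase, rose by log2 1.05 ± 0.28 (limma adjusted p = 0.0224), a call lost with quantile normalization (0.0712) and without 7-day replicate 2 or 3 or 3-day replicate 3 (adjusted p from 0.0586 to 0.079). Acsl6 and Cpt1c, both known as brain forms of their families, fell. Acsl6 measured 2.84, 1.58 and 1.46 FPKM at 7 days and 5.25, 11.8 and 6.41 FPKM at 3 days (log2 -1.54 ± 0.30; limma adjusted p = 0.00766). Cpt1c measured 2.42, 3.20 and 3.04 FPKM at 7 days and 11.7, 20.4 and 9.98 FPKM at 3 days (log2 -1.90 ± 0.25; limma adjusted p = 0.0018). Both were highest in 3-day replicate 2, where the neuron markers also summed highest, and the part of those cells in these changes was not tested. Acaa2 and Cpt1b had no row in the table analysed, and 4 genes of this list were set aside, among them Acaca.

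Regulators of the pathway went both ways, with 8 of 24 higher and 4 lower (median log2 change 0.23). The shares were 33.3% and 16.7%, beside 18.8% and 20.3% of all genes tested. Pparg, a nuclear receptor for fatty acids, rose by log2 1.31 ± 0.14 (limma adjusted p = 8.79e-04). Esrra, the estrogen-related receptor known to drive oxidation genes in muscle and fat, measured 8.55, 9.27 and 10.9 FPKM at 7 days and 5.57, 4.72 and 4.68 FPKM at 3 days (log2 0.82 ± 0.14; limma adjusted p = 0.0047). Ppard, another fatty acid receptor, measured 5.41, 5.55 and 5.37 FPKM at 7 days and 8.16, 7.50 and 8.40 FPKM at 3 days (log2 -0.48 ± 0.12; limma adjusted p = 0.0175). Ppard lost its call with quantile normalization (0.0957) and without any one 7-day library or 3-day replicate 3 (adjusted p from 0.0506 to 0.0568). The coactivator gene Ppargc1b overlapped, at 0.521 to 1.90 FPKM at 7 days and 1.07 to 1.66 FPKM at 3 days, while Pprc1 of the same family fell by 0.81 ± 0.20 on the log2 scale (limma adjusted p = 0.0187). The call of Pprc1 was lost with quantile normalization (0.0608) and without 7-day replicate 1 or 2 or 3-day replicate 1 or 3 (adjusted p from 0.0553 to 0.0624). Prkaa2, a catalytic subunit of AMP-activated kinase, measured 0.630, 0.381 and 0.364 FPKM at 7 days and 3.93, 5.24 and 4.67 FPKM at 3 days (log2 -1.94 ± 0.17; limma adjusted p = 5.10e-04), and was highest in 3-day replicate 2. The other catalytic subunit gene, Prkaa1, named after its values were seen, measured 26.8, 26.8 and 26.0 FPKM at 7 days and 21.6, 20.6 and 20.5 FPKM at 3 days, and was called higher (log2 0.33; limma adjusted p = 0.0216). Prkaa1 lost the call with quantile normalization (0.105) and without any one 7-day library or 3-day replicate 3 (adjusted p from 0.0559 to 0.0718). Ppara had no row, and Ppargc1a was set aside.

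Genes for other functions of the same organelles gave these counts. Of 19 peroxisome biogenesis genes, 6 were higher and 1 lower (median log2 change 0.15). These are 31.6% and 5.26%, beside 18.8% and 20.3% of all genes tested. Pxmp4, a peroxisomal membrane protein, rose by log2 1.19 ± 0.36 (limma adjusted p = 0.0346), a call lost without 7-day replicate 2 or 3 or 3-day replicate 2 (adjusted p from 0.0598 to 0.109). Pex5l, known as a brain form of the Pex5 import receptor, fell by 1.76 ± 0.27 (limma adjusted p = 0.00298) and was highest in 3-day replicate 2, at 26.3 FPKM. Pex7 and Pex3, both needed for protein import or membrane assembly, rose by log2 0.64 ± 0.16 and 0.43 ± 0.11 (limma adjusted p = 0.0194 and 0.0182). Pex7 lost the call without 7-day replicate 1 or 2 or 3-day replicate 1 or 3 (adjusted p from 0.0524 to 0.0727), and Pex3 without 7-day replicate 2 or 3 or 3-day replicate 3 (from 0.0532 to 0.069). Of 14 genes of the tricarboxylic acid cycle, 4 were higher and 1 lower (median 0.15), or 28.6% and 7.14%, against the same background. Suclg2, a subunit of succinyl-CoA ligase, rose by log2 0.56 ± 0.16 (limma adjusted p = 0.0263), a call lost without 7-day replicate 1 or 2 or 3-day replicate 1 or 2 (adjusted p from 0.0668 to 0.077), and the malate dehydrogenase gene Mdh2 fell by 0.49 ± 0.09 (limma adjusted p = 0.00606). Dld and Sucla2, which encode subunits of dehydrogenase complexes and of succinyl-CoA ligase, rose by log2 0.39 ± 0.08 and 0.38 ± 0.08 (limma adjusted p = 0.00947 and 0.00993), calls lost with quantile normalization (0.198 and 0.196). Of 81 nuclear genes in a list for the respiratory chain, 11 were higher and 5 lower (median 0.18), or 13.6% and 6.17%, beside 18.8% and 20.3% of all genes. That list was drawn by the start of the gene symbol, so it also holds ATP synthase genes and assembly factors of complex I. Cox6a2, a subunit of complex IV, measured 4.09, 5.03 and 4.44 FPKM at 7 days and 2.05, 2.07 and 1.38 FPKM at 3 days (log2 0.97 ± 0.17; limma adjusted p = 0.00496). Ndufa1, a subunit of complex I, rose by log2 0.76 ± 0.24 (limma adjusted p = 0.0400), a call lost with quantile normalization (0.121), without the trend in the prior variance (0.0546) and without 7-day replicate 2 or 3 or 3-day replicate 1 or 2 (adjusted p from 0.0943 to 0.113). Ndufab1, the mitochondrial acyl carrier protein, fell, with 42.1, 56.0 and 42.7 FPKM at 7 days and 64.0, 79.2 and 73.3 FPKM at 3 days (log2 -0.62 ± 0.14; limma adjusted p = 0.0130), a call lost without 7-day replicate 3 (0.0513). Sdha, the flavoprotein of complex II, measured 246, 220.4 and 259 FPKM at 7 days and 146, 157 and 167 FPKM at 3 days (log2 0.62 ± 0.11; limma adjusted p = 0.00505). These counts stand beside 28 higher and 1 lower of the 42 members and the medians of 0.29 for macrophage and 0.80 for microglia markers. The differences between lists were not tested. Short loci occurred among the named non-members too. The row covered 34.8% of the gene in Ech1, 58.5% in Pprc1 and 51.0% in Prkaa2. It covered 43.2% in Suclg2, 61.2% in Sucla2 and 48.5% in Sdha, and the part of this in their changes was not tested.

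**Figure D4:**
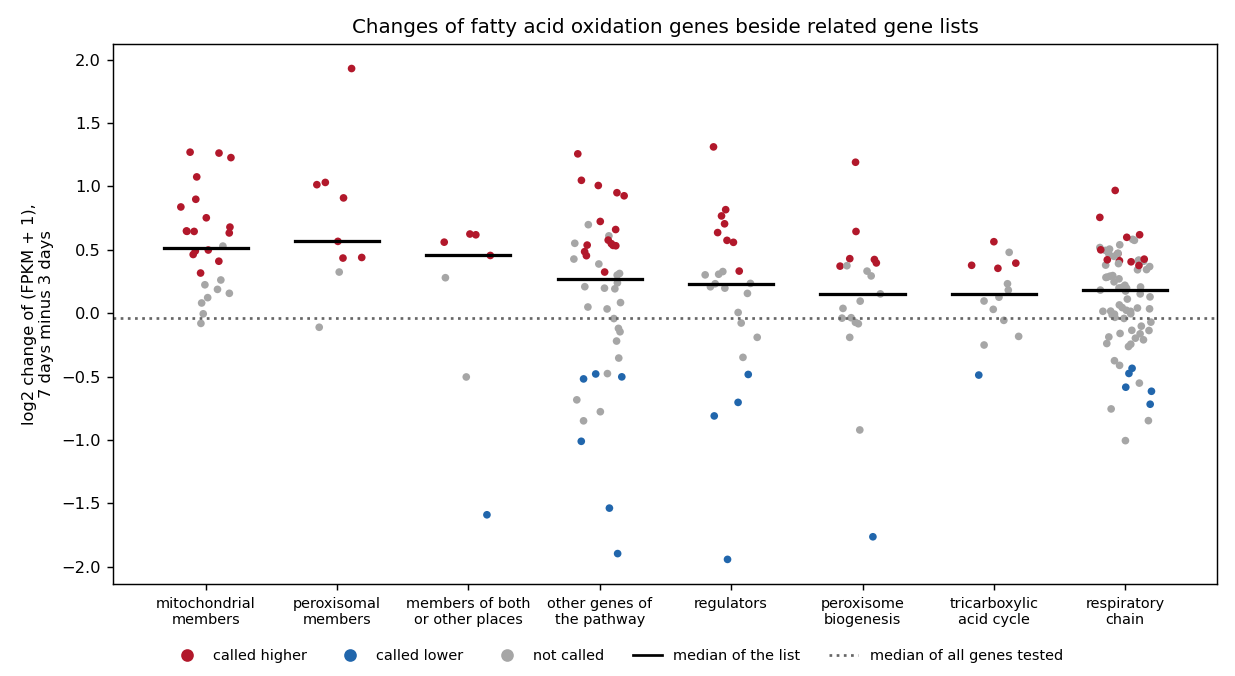
Fitted log2 change, 7 days minus 3 days, of each tested gene in the 3 location groups of the 42 members and in 5 related lists, with list medians as black bars and the median of all genes tested as a dotted line. The medians of the member groups lie between 0.46 and 0.57, and those of the other lists between 0.15 and 0.27.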

How the data were processed

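The authors deposited FPKM values per gene and library, the authors' mean FPKM per time and, from the authors' own test, a log2 fold change, a p-value, a q-value and a test-statistic score, per the file headers. TopHat2 2.0.12, Cufflinks 2.2, Cuffdiff 2.2.1 and mm10 are named in the submitters' processing notes, with no role or order; the library kit was ScriptSeq v2, as the labels' protocols state. The scaling between libraries is not given in the sources used here.

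Of 13960 rows, 918 were set aside before any test: 45 whose status was not OK, 838 whose library values missed the authors' mean by over 1%, 14 listed at 0 beside 100 FPKM or more in another library and 32 with repeated symbols, with some rows in more than 1 class. No member was among them. log2(FPKM + 1) of the other 13042 genes was fitted with limma 3.58.1 (R 4.3.3, mean-dependent prior variance), 7 days minus 3 days, two-sided. Fold changes on this scale understate the change of low genes. Ratios of pairs were tested with an exact permutation test (scipy 1.17.1). In a simulation over 13042 genes, normal noise was drawn with each gene's mean and spread, and 200 genes were changed. The fit recovered 84.0% of 100 genes changed 2-fold and 99.0% of 100 changed 4-fold, with 13 false calls. The changed genes came only from genes of higher mean and were far fewer than those called in the data. These rates therefore do not describe low genes such as Ehhadh and Cpt2.

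Deposited loci were set beside GENCODE M21 genes of the same build; 11 members' loci also overlap another coding gene. Whether the authors' starts count from 0 or 1 is not stated. Promoter sequences are from RefSeq, GRCm38.p6. Every member is named; values in every library are given for called members and reaction pairs, and up to 4 called genes with the largest change are named per related list, with 9 genes added always; some genes of these lists are not reported here. The members, lists and tests were chosen with earlier results of these data known.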

Additional observations from a re-analysis of the deposited data

How the results depend on the processing

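Of the 42 members, none reversed a call under the 14 alternative fits; Acadl, Acad9, Hadh, Etfa and Ivd, which were not called, changed sign in some. With quantile normalization Acadl was at -0.15, Hadh at -0.078 and Ivd at -0.044; the cause was not tested. When libraries were left out in turn, Acadl ran from -0.0035 to 0.13, Acad9 from -0.24 to 0.016, Hadh from -0.00031 to 0.21 and Etfa from -0.095 to 0.054 (log2). Members that rose numbered 18 to 23 with 1 library left out, mitochondrial members 12 to 15 and peroxisomal members 5 or 6. All genes higher numbered 1572 to 2207 and lower 1697 to 2565 in those fits, against 2453 and 2645 with all libraries; genes of the authors' filtered table alone gave 1419 lower, with fewer genes tested. The peroxisomal median log2 change was 0.75 with quantile normalization; the cause was not tested. Counting members with 80% or more of the gene in the row, an alternative added after seeing the data, gave 18 members and 2 peroxisomal members higher, from fewer members, and a peroxisomal median of 0.38. By the authors' q-value 25 members were higher. Deviations from the time means correlated weakly between same-numbered libraries (r = 0.115, 0.0096 and 0.0105). Differently numbered libraries gave r from -0.0626 to 0.0476. Such deviations cannot show whether same-numbered libraries were handled together. With the replicate block 26 members were higher and 1 lower, beside 2450 and 2425 of all genes. The 7 log2 ratios of pairs kept their sign with a pseudocount of 0.1 and with each library left out. Read depth is unknown in FPKM.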
